A study of Homo sapiens with 6 samples.

Results

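The extracellular matrix is the protein scaffold around cells. Collagens and laminins are its structural proteins, adhesive glycoproteins such as fibronectin and thrombospondins bind to it, and integrins, receptors made of an α and a β chain, tie it to the actin cytoskeleton. Matrix metalloproteinases (MMPs) cut it, TIMPs inhibit the MMPs, and lysyl oxidases crosslink collagen. In ovarian cancer, attachment of tumor cells to fibronectin, collagen and laminin of the peritoneal lining through integrins is a known step of spread within the abdomen.

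The genes of this system were taken by symbol from RNA-Seq of OVCAR8, a cell line from high-grade serous ovarian cancer: collagens, laminins, integrins, MMPs, TIMPs and lysyl oxidases by their naming pattern, with FN1, THBS1, THBS3, FBN1, FBN2, SPARC, TNC and THSD4 added by name. Of 14930 genes in the table, 81 had such a symbol, and 51 of these reached a value of 10 or more in 2 or more of the 6 samples. They are 51 of the 9671 genes of the whole table that reached this level and were tested.

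The 6 samples form 3 groups of 2 replicates, each collected after 72 hours. They are control cells (Ctrl), cells given 5 μM DZNep, and cells in which doxycycline (1 μg/mL) induced a hairpin against EZH2 (shEZH2). Both doses follow the study's methods, since the sample labels write them in mM and mg/mL. DZNep (3-deazaneplanocin A) blocks S-adenosylhomocysteine hydrolase and so acts on many methyltransferases besides EZH2, the catalytic subunit of the histone methyltransferase complex PRC2. The shEZH2 cells are OVCAR8 cells with 1 inducible hairpin (#2). Whether the control samples carried that hairpin or received DMSO is not given for each sample, and no sample received doxycycline without the hairpin, so the effects of the hairpin and of doxycycline cannot be told apart. The labels do not say that replicates came from separate cultures, so the p-values measure the spread between these samples, which may be technical.

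EZH2 itself had values of 36 and 42 in Ctrl, 26 and 26 with DZNep, and 18 and 18 with shEZH2. It fell with shEZH2 (log2 fold change -1.12, SE 0.18, adjusted p 0.016 from limma) and differed by -0.63 with DZNep (SE 0.18, adjusted p 0.026), short of the size required for a call. The sequence that the hairpin targets lies in coding exon 4 of EZH2, at chr7:148832703-148832723 of GRCh38 on the minus strand, and had 1 exact match on that chromosome. It is printed because it defines the shEZH2 group.

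EZH2 hairpin #2 target: ccaacacaagtcatcccatta

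Each deposited value is a whole number on a scale that adds up to nearly the same total in every sample (999956 to 1000068), so values are relative levels and not read counts, and the number of reads behind them is unknown. A gene is described as higher or lower, or as having risen or fallen, where its log2 fold change of rescaled values exceeded 1 in size and its Benjamini-Hochberg adjusted p over all 9671 genes was under 0.05 (limma, all 6 samples in 1 fit). The replicates were not equally close. The SD of the log2 difference between replicates over all tested genes was 0.428 in Ctrl, 0.447 with DZNep and 0.141 with shEZH2, and of the 51 genes, 9 in Ctrl, 13 with DZNep and 0 with shEZH2 differed by more than 0.5 between replicates. Of the epithelial markers, the keratins KRT7, KRT8 and KRT18 were at 350 or more in every sample and PAX8 was at 10 to 19, while EPCAM (5 to 12), WT1 (1 to 2), MUC1 (1 to 2) and CDH1 (0 to 8) were low. The summed level of the 8 listed of 11 epithelial markers was 2428 to 3038 in Ctrl, 7374 to 8549 with DZNep and 3458 to 3459 with shEZH2, which follows KRT8 and KRT18.

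With DZNep, 11 of the 51 genes rose (21.6%, where 10.5% of all tested genes rose) and 16 fell (31.4%, where 11.7% of all fell). With shEZH2, 4 rose (7.84%, where 2.02% of all did) and 11 fell (21.6%, where 2.73% of all did). The median size of the log2 change was 1.1 with DZNep and 0.68 with shEZH2 over these genes, beside 0.53 and 0.31 over all tested genes. The median signed change stayed near 0, at -0.10 with DZNep and -0.14 with shEZH2, so gains and losses stood side by side within the system. The genes were chosen with earlier results of these data known, so the shares of all tested genes are given for scale and are no test of an excess. Of the 8 genes added by name, 3 rose and 3 fell with DZNep. Both comparisons use the same 2 control samples. The shEZH2 counts rest on both shEZH2 samples: with these averaged and counted as 1 sample, 0 genes rose and 1 fell, and without shEZH2 replicate 1 or replicate 2, 0 rose and 2 or 1 fell.

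How a gene passed the minimum level bears on these counts. Of the 51, 8 (COL11A2, COL27A1, COL16A1, TNC, MMP15, ITGA7, ITGA4 and LOXL3) had fewer than 2 control samples at 10 or more, and 6 (ITGA1, ITGB2, ITGB4, THSD4, MMP11 and COL23A1) had no treated sample at 10 or more. Among the other 37, DZNep gave 6 higher and 10 lower genes, and shEZH2 gave 2 higher and 5 lower. Over all tested genes, 10.5% were higher and 11.7% lower with DZNep, and 2.02% and 2.73% with shEZH2. No share was taken over all genes that passed in the same way. The remaining calls came from genes that passed mainly through 1 side of the comparison. Just inside the minimum were COL11A2 (2 and 2 in Ctrl, 10 and 10 with DZNep, and 5 and 5 with shEZH2) and LOXL3 (8, 5, 12, 10, 7 and 8 in the same order), each with 2 samples at 10 or more. Just outside it were MMP19 (8, 7, 10, 8, 8 and 8 in the same order) and COL5A2 (1, 1, 8, 11, 3 and 3).

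**Figure D1:**
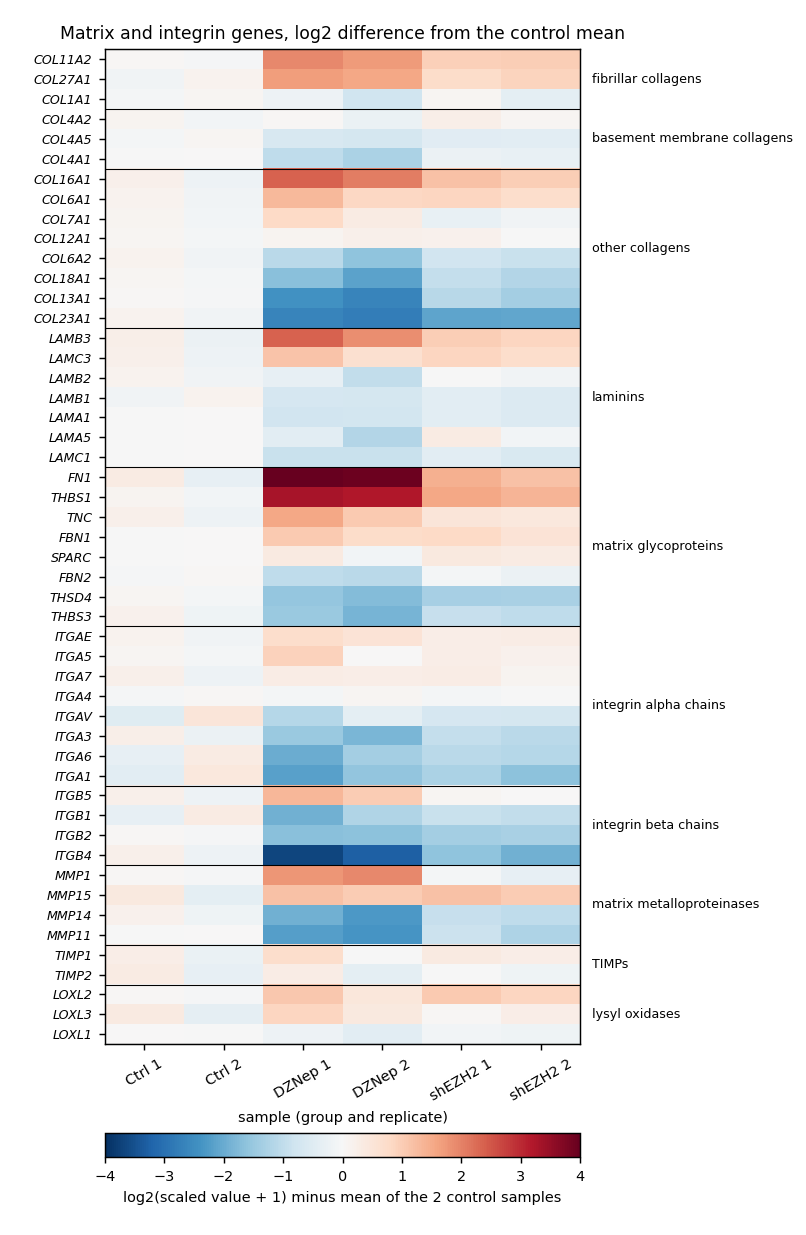
Change of 50 of the 51 genes (rows, grouped by role) in each of the 6 samples (columns), as log2(rescaled value + 1) minus the mean of the 2 control samples; red is higher and blue is lower, on a scale from -4 to 4. FN1 and THBS1 are the strongest red rows, and ITGB4, COL23A1 and COL13A1 the strongest blue rows, with paler shades of the same color in the shEZH2 columns.

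Fibronectin (FN1), the adhesive glycoprotein that integrins assemble into fibrils, changed more with DZNep than any other of the 51 genes. Its deposited values were 36 and 25 in Ctrl, 546 and 544 with DZNep, and 87 and 70 with shEZH2. All 4 treated samples lay above both controls, and the DZNep and shEZH2 values did not overlap. FN1 rose 16.8-fold with DZNep (log2 fold change 4.07, SE 0.24, adjusted p 5.1e-05, limma) and 2.46-fold with shEZH2 (log2 1.30, SE 0.24, adjusted p 0.021). Over the alternative settings its shEZH2 log2 change was 0.969 at its lowest, just short of the size required. The shEZH2 call of FN1 was lost without Ctrl replicate 2, without either shEZH2 replicate, and with the shEZH2 samples averaged. Thrombospondin-1 (THBS1), a secreted glycoprotein that binds matrix and cell surfaces and can activate latent TGF-β, had values of 46 and 45 in Ctrl, 443 and 493 with DZNep, and 141 and 120 with shEZH2. It rose 9.59-fold with DZNep (log2 3.26, SE 0.16, adjusted p 3.5e-05) and 2.73-fold with shEZH2 (log2 1.45, SE 0.16, adjusted p 0.0058).

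The bases just before the RefSeq starts of both genes (GRCh38.p14) are shown because these genes had the largest gains. For FN1, the 200 bases at chr2:215436069-215436268 on the minus strand hold, in capitals, the cyclic AMP response element TGACGTCA and a CCAAT box. For THBS1, the 150 bases at chr15:39580929-39581078 on the plus strand hold, in capitals, ATTGG, which reads as the CCAAT box on the other strand, and further on the core bound by TEAD factors, GGAATG.

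FN1 upstream: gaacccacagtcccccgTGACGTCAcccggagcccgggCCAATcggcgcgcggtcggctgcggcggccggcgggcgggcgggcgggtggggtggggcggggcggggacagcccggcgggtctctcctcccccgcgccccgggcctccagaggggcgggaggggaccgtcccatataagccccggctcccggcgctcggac

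THBS1 upstream: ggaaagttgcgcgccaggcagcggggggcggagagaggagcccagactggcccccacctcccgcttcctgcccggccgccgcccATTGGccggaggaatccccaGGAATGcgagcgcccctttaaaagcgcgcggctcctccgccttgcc

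Of the 51 genes, 39 had a promoter in the RefSeq table, and their 250 bases upstream were searched on both strands for short motifs. MMP1 and ITGB4 were among the genes without one, so the search says nothing of them. TGACGTCA occurred in 1 of the 39, FN1, and in 1.77% of all 27305 promoters. GGAATG occurred in 8 (20.5%, beside 11.9% of all), CCAAT in 10 (25.6%, beside 33%), the GC box GGGCGG in 26 (66.7%, beside 42.3%) and TATAAA in 4 (10.3%, beside 11.1%). The AP-1 motif TGANTCA had no match in the 39 and occurred in 6.6% of all promoters. These are matches of letters in a fixed window and say nothing of binding. The set of all promoters includes genes that were not tested here, so a difference in share is not a trait of the 39.

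The other glycoproteins moved in both directions. Tenascin-C (TNC), which modulates adhesion to fibronectin, had values of 11 and 9 in Ctrl, 30 and 25 with DZNep, and 15 and 14 with shEZH2, and rose with DZNep (log2 1.31, SE 0.24, adjusted p 0.0041). Its shEZH2 samples lay just above the controls without a call (log2 0.45, adjusted p 0.26). Thrombospondin-3 (THBS3), of the same family as THBS1, had 73 and 65 in Ctrl, 23 and 21 with DZNep, and 38 and 34 with shEZH2, and fell with DZNep (log2 -1.67, SE 0.21, adjusted p 7.3e-04), the opposite direction to THBS1. With shEZH2 its difference of -0.97 was just short of the size required (adjusted p 0.031). THSD4, an ADAMTS-like protein that promotes fibrillin assembly, had 11 and 11, 3 and 3, and 4 and 4, and fell with DZNep (log2 -1.64, SE 0.20, adjusted p 6.3e-04) and with shEZH2 (log2 -1.31, SE 0.20, adjusted p 0.014). At these low values, rounding to whole numbers is a large part of each value.

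The fibrillins, which form the microfibrils that carry elastin, differed from each other. FBN2, the fibrillin of developing tissue, had 160 and 195 in Ctrl, 84 and 95 with DZNep, and 177 and 153 with shEZH2, and fell with DZNep (log2 -1.05, SE 0.16, adjusted p 0.0016). This call was lost without Ctrl replicate 2 or with the values as deposited, where the change was just under 1 in size. FBN1 had 32 and 36, 69 and 66, and 63 and 51, differences of 0.90 with DZNep (adjusted p 0.0068) and 0.68 with shEZH2 (adjusted p 0.062) that stayed below the required size. SPARC, which binds collagen and is secreted by many cell types, had 166 and 186, 218 and 186, and 243 and 226, with overlapping Ctrl and DZNep values and no call (log2 0.12, adjusted p 0.63 with DZNep and log2 0.36, adjusted p 0.25 with shEZH2).

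**Figure D2:**
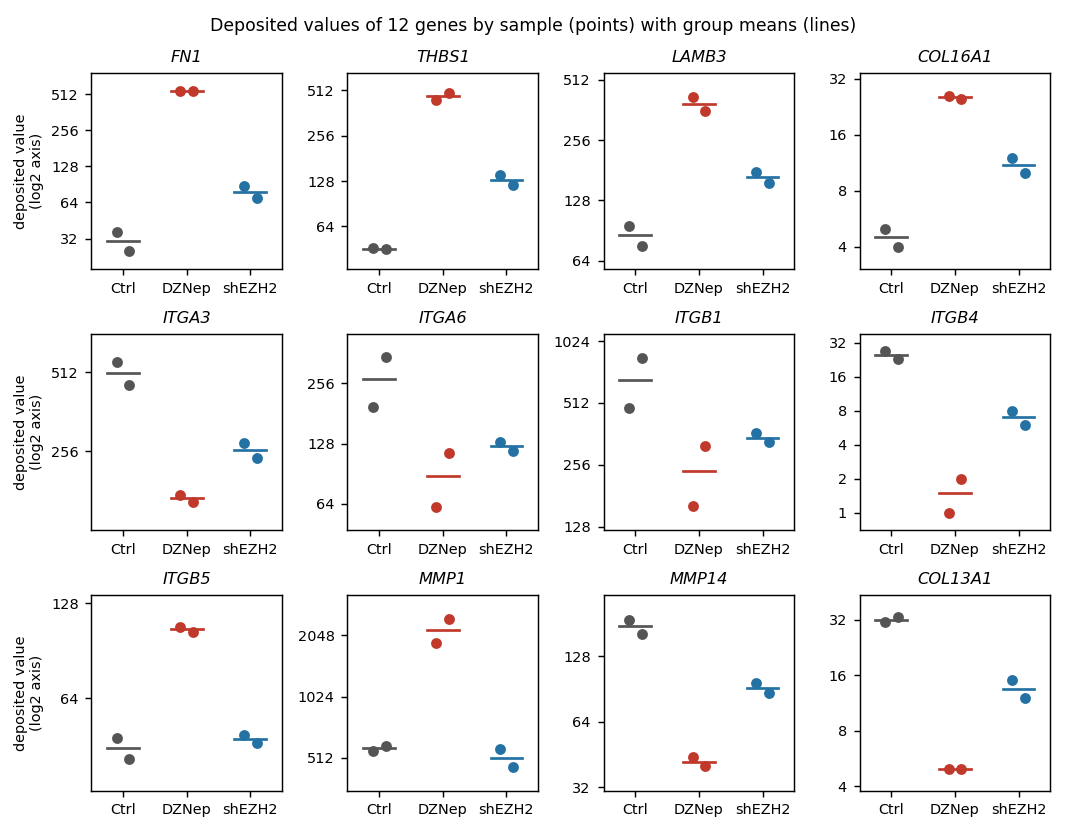
Deposited values of 12 of the genes in each sample on log2 axes (points: samples, horizontal lines: group means, 2 samples per group). For FN1, THBS1, LAMB3 and COL16A1 the group means are ordered Ctrl, shEZH2, DZNep from low to high, for ITGB4, MMP14 and COL13A1 from high to low, while for ITGB5 and MMP1 the shEZH2 samples lie at the control level.

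Of the laminins, heterotrimers of the basement membrane, 10 chains were matched and 8 reached the minimum level. LAMB3 is a β chain of the laminin at epithelial anchoring sites. LAMB3 (chromosome 1, 209614870 to 209652425, minus strand) had 95 and 76 in Ctrl, 422 and 357 with DZNep, and 178 and 156 with shEZH2, and rose with DZNep (log2 2.11, SE 0.23, adjusted p 4.4e-04). The shEZH2 difference of 0.91 (adjusted p 0.049) did not reach the required size. The α chain LAMA3 was below the minimum level, with 1 and 1, 4 and 4, and 1 and 1.

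Of the other laminin chains, 5 had lower values with DZNep, none by enough for a call. LAMC1, the γ chain shared by most laminins, had 322 and 366 in Ctrl, 178 and 210 with DZNep, and 269 and 230 with shEZH2 (log2 -0.90 with DZNep, SE 0.15, adjusted p 0.0027). LAMA1 had 226 and 257, 136 and 165, and 190 and 166 (log2 -0.75 with DZNep, SE 0.15, adjusted p 0.0055). LAMB2 had 224 and 208, 164 and 125, and 226 and 199 (log2 -0.66 with DZNep, SE 0.23, adjusted p 0.049). The DZNep samples of all 3 lay below the controls. LAMB1 and LAMA5 also had negative DZNep differences (-0.69 and -0.80), while the γ chain LAMC3 had a positive one (0.89). Over the 8 chains the median log2 change was -0.67 with DZNep and -0.28 with shEZH2.

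Among collagen IV chains, the network-forming collagens of the basement membrane, COL4A1 and COL4A2 encode the α chains that assemble into 1 trimer, and their genes lie head to head on chromosome 13. COL4A1 had 237 and 265 in Ctrl, 120 and 119 with DZNep, and 226 and 208 with shEZH2, and fell with DZNep (log2 -1.13, SE 0.16, adjusted p 0.0013). Its shEZH2 difference was -0.26 (adjusted p 0.33). COL4A2 had 553 and 537, 547 and 525, and 675 and 585, so its Ctrl and DZNep values overlapped (log2 -0.10, SE 0.18, adjusted p 0.69) and its shEZH2 difference was 0.16 (adjusted p 0.60). The ratio of COL4A1 to COL4A2 within a sample, as log2 of values plus 1, was -1.22 and -1.02 in Ctrl, -2.18 and -2.13 with DZNep, and -1.57 and -1.49 with shEZH2, with no overlap between the 3 groups. The third chain that passed, COL4A5, had 12 and 15, 8 and 9, and 10 and 10 (log2 -0.67, adjusted p 0.023 with DZNep), without a call.

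The stretch between the RefSeq starts of COL4A1 and COL4A2 is 126 bases long (chr13:110307158-110307283, GRCh38.p14, plus strand, read toward COL4A2), and is shown because both genes start from it in opposite directions. Capitals mark a CCAAT box and a GC box (GGGCGG). GENCODE also has COL4A2 transcripts that start earlier, within the annotated span of COL4A1.

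Between COL4A1 and COL4A2: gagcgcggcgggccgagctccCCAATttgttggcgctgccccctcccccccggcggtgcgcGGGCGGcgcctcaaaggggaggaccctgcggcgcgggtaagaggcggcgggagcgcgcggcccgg

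The fibrillar collagens, which form the banded fibers of connective tissue, were sparse in this line. Of 4 matched genes, 3 reached the minimum level and 2 of these rose with DZNep, where 10.5% of all tested genes rose. Both that rose had fewer than 2 control samples at 10 or more, so they passed mainly through treated samples. COL11A2 had 2 and 2 in Ctrl, 10 and 10 with DZNep, and 5 and 5 with shEZH2 (log2 1.82, SE 0.20, adjusted p 4.5e-04 with DZNep). COL27A1 had 5 and 7, 20 and 22, and 11 and 12 (log2 1.60, SE 0.20, adjusted p 8e-04 with DZNep). For both, the shEZH2 samples lay between the other groups without a call, with log2 differences from Ctrl of 0.97 and 0.81. COL1A1, a chain of the main collagen of bone and skin, had 13 and 16, 12 and 9, and 16 and 11, with overlapping shEZH2 and Ctrl values and no call (log2 -0.50, adjusted p 0.16 with DZNep and log2 -0.16, adjusted p 0.73 with shEZH2). COL1A1 was at 9 to 16 in every sample, and most fibroblast markers were near 0 (LUM at 0 to 2, ACTA2 at 1 to 3 and TCF21 at 2 to 3), apart from PDGFRB at 12 and 11 in Ctrl, 56 and 42 with DZNep, and 37 and 34 with shEZH2. The summed level of the 4 listed of 8 fibroblast markers was 16 to 18, 48 to 61 and 40 to 43 in the 3 groups, and its part in these results was not tested. In RNA from whole cultures, a change in the share of cells that use a gene and a change in RNA per cell cannot be told apart.

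Of the other collagens, 15 were matched and 8 passed, with 2 higher and 4 lower with DZNep (over all tested genes, 10.5% and 11.7%). COL16A1 had fewer than 2 control samples at 10 or more, and COL23A1 had no treated sample at 10 or more. The transmembrane collagens COL13A1 and COL23A1 fell. COL13A1, which sits at cell-matrix contacts, had 31 and 33 in Ctrl, 5 and 5 with DZNep, and 15 and 12 with shEZH2, and fell with DZNep (log2 -2.52, SE 0.20, adjusted p 1.2e-04) and with shEZH2 (log2 -1.24, SE 0.20, adjusted p 0.016). COL23A1 had 12 and 11, 1 and 1, and 2 and 2, and fell with DZNep (log2 -2.69, SE 0.20, adjusted p 9.8e-05) and with shEZH2 (log2 -2.10, SE 0.20, adjusted p 0.0035). Given rounding to whole numbers, the log2 ratio of its DZNep to its Ctrl level can lie anywhere from -4.58 to -2.87. COL18A1, the basement membrane collagen from which endostatin is cut, had 65 and 65, 19 and 16, and 35 and 29, and fell with DZNep (log2 -1.91, SE 0.21, adjusted p 5e-04) and with shEZH2 (log2 -1.05, SE 0.21, adjusted p 0.028). COL16A1, a collagen that associates with fibrils, had 5 and 4, 26 and 25, and 12 and 10, and rose with DZNep (log2 2.21, SE 0.23, adjusted p 3.5e-04) and with shEZH2 (log2 1.08, SE 0.23, adjusted p 0.029).

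Collagen VI, a beaded filament built from COL6A1, COL6A2 and a further chain, showed opposite changes of its chains. COL6A1 had 49 and 45 in Ctrl, 112 and 96 with DZNep, and 91 and 79 with shEZH2, and rose with DZNep (log2 1.06, SE 0.21, adjusted p 0.0054), a call lost without Ctrl replicate 2 or DZNep replicate 1, or with a pseudocount of 5. COL6A2 had 335 and 307, 147 and 119, and 197 and 175, and fell with DZNep (log2 -1.34, SE 0.22, adjusted p 0.0022). With shEZH2 the differences were 0.79 (adjusted p 0.056) and -0.83 (adjusted p 0.053), each in the DZNep direction and without a call. The log2 ratio of COL6A1 to COL6A2 was -2.75 and -2.74 in Ctrl, -0.39 and -0.31 with DZNep, and -1.11 and -1.14 with shEZH2. COL6A3, the chain that completes the trimer, was at 1 to 3 in all samples. The 2 remaining genes were not called: COL7A1, the anchoring fibril collagen, had 34 and 32, 56 and 48, and 28 and 30, and COL12A1 had 39 and 39, 41 and 52, and 46 and 39.

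**Figure D3:**
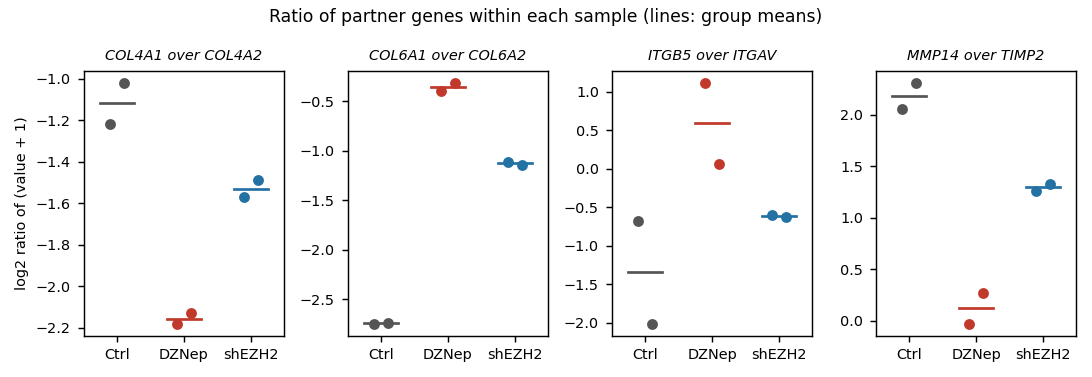
Log2 ratio of (value + 1) between partner genes within each sample, for COL4A1 over COL4A2, COL6A1 over COL6A2, ITGB5 over ITGAV and MMP14 over TIMP2 (points: samples, lines: means of 2). COL6A1 over COL6A2 moves from about -2.75 in Ctrl to -0.35 on average with DZNep, and MMP14 over TIMP2 is below both controls in all 4 treated samples.

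These ratios of partner genes were chosen after the values were seen and are given as a description. For ITGB5 over ITGAV the log2 ratio was -0.67 and -2.01 in Ctrl, 1.12 and 0.07 with DZNep, and -0.60 and -0.62 with shEZH2, so both DZNep samples lay above the other 4. For MMP14 over its inhibitor TIMP2 it was 2.05 and 2.31 in Ctrl, -0.03 and 0.27 with DZNep, and 1.26 and 1.33 with shEZH2.

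Among integrin α chains, 13 were matched and 8 passed. None was called higher, and ITGA3, ITGA6 and ITGA1 fell with each treatment. Over all tested genes, 11.7% fell with DZNep and 2.73% with shEZH2. ITGA1 had no treated sample at 10 or more, so it passed only through the controls. ITGA3 and ITGA6 bind laminins and ITGA1 binds collagens, each with the β chain ITGB1. ITGA3 had 561 and 458 in Ctrl, 175 and 164 with DZNep, and 276 and 241 with shEZH2, with no overlap between groups, and fell with DZNep (log2 -1.65, SE 0.21, adjusted p 7.8e-04) and with shEZH2 (log2 -1.02, SE 0.21, adjusted p 0.027). ITGA6 had 194 and 345, 62 and 115, and 130 and 118, and fell with DZNep (log2 -1.68, SE 0.27, adjusted p 0.0024) and with shEZH2 (log2 -1.11, SE 0.27, adjusted p 0.048). ITGA1 had 12 and 25, 3 and 6, and 7 and 5, and fell with DZNep (log2 -1.86, SE 0.33, adjusted p 0.0035) and with shEZH2 (log2 -1.45, SE 0.33, adjusted p 0.039). The shEZH2 calls of ITGA3, ITGA6 and ITGA1 were lost with the values as deposited. Those of ITGA6 and ITGA1 were also lost with no filter on low values, and that of ITGA6 in a limma fit without trend. The shEZH2 calls of ITGA3, ITGA6 and ITGA1 were all lost without either shEZH2 replicate and with the shEZH2 samples averaged. That of ITGA3 was lost without Ctrl replicate 1, and those of ITGA6 and ITGA1 without Ctrl replicate 2.

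The uncalled α chains with the highest levels were ITGAV, ITGA5 and ITGAE. ITGAV, the vitronectin receptor chain, had 77 and 168 in Ctrl, 49 and 99 with DZNep, and 75 and 71 with shEZH2, and its Ctrl and DZNep values overlapped (log2 -0.77, SE 0.34, adjusted p 0.10). Within the same replicate number, its DZNep difference from Ctrl was -0.667 and -0.875. ITGA5, the chain of the main fibronectin receptor, had 103 and 102, 187 and 119, and 131 and 118. All 4 treated values exceeded the controls, but the DZNep replicates were far apart (log2 0.47, SE 0.27, adjusted p 0.20), so a gain of this receptor chain beside that of FN1 was not detected. ITGAE had 29 and 27, 44 and 47, and 36 and 35 (log2 0.61, SE 0.18, adjusted p 0.028 with DZNep), without a call. ITGA4 and ITGA7 stayed between 9 and 14 in all samples.

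Of 6 matched β chains, 4 passed, and with DZNep 3 fell and 1 rose (over all tested genes, 11.7% fell and 10.5% rose). Of those that fell, ITGB2 and ITGB4 had no treated sample at 10 or more, so they passed only through the controls. ITGB1, the partner of most α chains above, had 482 and 849 in Ctrl, 161 and 315 with DZNep, and 364 and 330 with shEZH2. Both DZNep samples lay below both controls, although the replicates differed widely in each of these groups, and ITGB1 fell with DZNep (log2 -1.57, SE 0.28, adjusted p 0.0036). Within the same replicate number, its DZNep difference from Ctrl was -1.601 and -1.546. With shEZH2 the difference of -0.93 was not called (SE 0.28, adjusted p 0.077). ITGB4, which pairs with ITGA6 in hemidesmosomes, had 27 and 23, 1 and 2, and 8 and 6, and had the largest loss of the 51 genes with DZNep (log2 -3.47, SE 0.25, adjusted p 8.2e-05). With rounding taken into account, its log2 ratio of DZNep to Ctrl can lie from -4.67 to -3.61, and the fitted value is smaller because 1 is added to each value. It also fell with shEZH2 (log2 -1.75, SE 0.25, adjusted p 0.012).

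ITGB2, the β chain of leukocyte integrins, had 18 and 19 in Ctrl, 5 and 6 with DZNep, and 7 and 7 with shEZH2, and fell with DZNep (log2 -1.65, SE 0.19, adjusted p 4.9e-04) and with shEZH2 (log2 -1.33, SE 0.19, adjusted p 0.011). Beside it, the leukocyte marker CD14 (1 to 2) was near 0 in every sample, PTPRC, CD3E and LYZ were not listed, and CD68, a lysosomal protein of macrophages that other cells also make, was at 70 and 65, 18 and 15, and 32 and 28. The summed level of the 3 listed of 6 leukocyte markers was 70 to 74, 18 to 21 and 32 to 35, and its part in the change of ITGB2 was not tested. ITGB5, which pairs with ITGAV, was the 1 integrin chain that rose. It had 48 and 41, 108 and 104, and 49 and 46, and rose with DZNep (log2 1.17, SE 0.20, adjusted p 0.0028), a call lost without Ctrl replicate 2 (log2 0.98). Its shEZH2 samples lay at the level of the controls (log2 0.05, adjusted p 0.90).

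All 4 MMPs that passed, of 11 matched, were called with DZNep, 2 in each direction. Over all tested genes, 10.5% rose and 11.7% fell with DZNep. MMP15 had fewer than 2 control samples at 10 or more, and MMP11 had no treated sample at 10 or more. MMP1, the collagenase that cuts fibrillar collagen (chromosome 11, 102789401 to 102798160), had 556 and 585 in Ctrl, 1870 and 2481 with DZNep, and 568 and 461 with shEZH2, and rose 3.59-fold with DZNep (log2 1.84, SE 0.17, adjusted p 2.1e-04). Its shEZH2 samples overlapped the controls (log2 -0.21, SE 0.17, adjusted p 0.46). MMP14, the membrane-anchored collagenase found at invading cell edges (chromosome 14, 22836560 to 22849041), had 189 and 163, 44 and 40, and 97 and 87, and fell with DZNep (log2 -2.11, SE 0.20, adjusted p 2.8e-04). With shEZH2 its difference of -0.98 was just short of the required size (adjusted p 0.029). MMP11 had 12 and 14, 2 and 2, and 7 and 5, and fell with DZNep (log2 -2.28, SE 0.21, adjusted p 2.4e-04) and with shEZH2 (log2 -1.06, SE 0.21, adjusted p 0.027). MMP15, a further membrane-anchored MMP, had 10 and 6, 18 and 19, and 20 and 17, and rose with DZNep (log2 1.08, SE 0.28, adjusted p 0.016) and with shEZH2 (log2 1.10, SE 0.28, adjusted p 0.049), calls that were both lost without Ctrl replicate 2 and with a pseudocount of 5. The DZNep call was also lost without DZNep replicate 1, and the shEZH2 call was lost in 8 of 16 alternatives, among them without either shEZH2 replicate.

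The inhibitors and crosslinking enzymes had no call in either comparison. TIMP1 had 63 and 48 in Ctrl, 87 and 62 with DZNep, and 75 and 67 with shEZH2 (log2 0.34, SE 0.28, adjusted p 0.35 with DZNep). TIMP2 had 45 and 32, 45 and 33, and 40 and 34 (log2 -0.05, SE 0.29, adjusted p 0.91 with DZNep), with the replicates of a group further apart than the groups. LOXL2, a lysyl oxidase that crosslinks collagen IV, had 52 and 55, 109 and 85, and 118 and 100, with all treated values above the controls and differences below the required size (log2 0.77, adjusted p 0.025 with DZNep and log2 0.96, adjusted p 0.039 with shEZH2). LOXL1 had 14 and 15, 12 and 12, and 14 and 13, and LOXL3 had 8 and 5, 12 and 10, and 7 and 8, neither with a call.

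**Figure D4:**
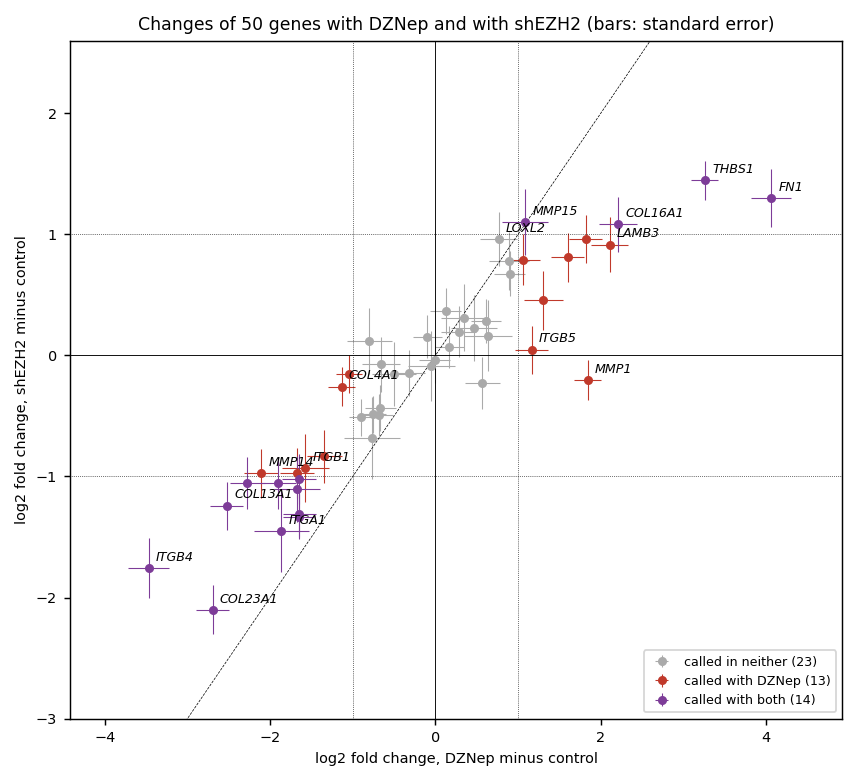
Log2 fold change of 50 of the 51 genes with DZNep (horizontal axis) and with shEZH2 (vertical axis), with standard errors, colored by call; the dashed diagonal marks equal change and the dotted lines a log2 change of 1 in size. Both axes subtract the same 2 control samples, so the slope of the cloud is not evidence of likeness. FN1, THBS1 and ITGB4 lie far out along the DZNep axis, and MMP1 and ITGB5 lie off the diagonal.

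Across both comparisons, 4 genes rose with each treatment (FN1, THBS1, COL16A1 and MMP15), and 10 fell with each: ITGA1, ITGA3, ITGA6, ITGB2, ITGB4, COL13A1, COL18A1, COL23A1, MMP11 and THSD4. A further 13 were called with DZNep and not with shEZH2, 1 with shEZH2 and not with DZNep, 23 with neither, and 0 in opposite directions. Both comparisons subtract the same 2 control samples, which favors a shared direction. The overlap over all tested genes was not counted, so these counts are only a description. Of the 15 shEZH2 calls, 1 (COL23A1) was kept under every alternative in which the gene was tested. With values of 12 and 11 in Ctrl and 2 and 2 with shEZH2, COL23A1 was not tested with a minimum of 20. Rounding is a large part of such values. A call in 1 comparison only does not show that the treatments differed, so shEZH2 was also compared with DZNep directly.

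In that comparison 4 of the 51 genes were higher with shEZH2 (7.84%, where 3.04% of all tested genes were) and 7 were lower (13.7%, where 2% of all were). Lower with shEZH2 than with DZNep were, among others, FN1 (log2 -2.77, SE 0.24, adjusted p 0.0024), MMP1 (log2 -2.05, SE 0.17, adjusted p 0.0020), THBS1 (log2 -1.81, SE 0.16, adjusted p 0.0026), LAMB3 (log2 -1.19, adjusted p 0.022), COL16A1 (log2 -1.13, adjusted p 0.024) and ITGB5 (log2 -1.12, adjusted p 0.017). Higher were ITGB4 (log2 1.72, SE 0.25, adjusted p 0.0096), COL13A1 (log2 1.28, adjusted p 0.012), MMP11 (log2 1.22, adjusted p 0.016) and MMP14 (log2 1.13, adjusted p 0.018). For FN1, THBS1, COL16A1, ITGB4, COL13A1 and MMP11, called with both treatments, shEZH2 lay between Ctrl and DZNep. For MMP1 and ITGB5 it lay at the control level while DZNep lay above it. FN1, MMP1 and THBS1 were called under every alternative setting tried. Of the 11 calls, 7 were lost with the shEZH2 samples averaged, which left 0 higher and 4 lower.

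Genes that act around these proteins were counted from 4 lists: collagen synthesis and processing, other matrix glycoproteins and proteoglycans, focal adhesion components, and other matrix proteases with their inhibitors. Of 145 listed genes 85 were tested, of which 16 rose (18.8%) and 10 fell (11.8%) with DZNep, beside 10.5% and 11.7% of all tested genes, so the share that fell was near that of all genes. With shEZH2, 5 rose (5.88%) and 3 fell (3.53%), beside 2.02% and 2.73% of all. Some genes that rose with DZNep had fewer than 2 control samples at 10 or more. They were BCAR1 and SORBS3 of the focal adhesion list, LTBP3, EMILIN2 and HAPLN3 of the glycoproteins, and ADAMTS12 of the proteases. SORBS3 and LTBP3 also rose with shEZH2. Such genes passed mainly through treated samples, so these shares are no test of an excess. Focal adhesion components, the proteins that link integrins to actin, had 8 of 34 higher and 1 lower with DZNep, and 4 higher and 0 lower with shEZH2, to be read beside the same shares of all tested genes (10.5% higher and 11.7% lower with DZNep, 2.02% and 2.73% with shEZH2). These 34 genes had a median log2 change of 0.37 (DZNep) and 0.40 (shEZH2), beside 0.02 and -0.01 over all tested genes. TLN2, a talin that binds integrin β tails, had 17 and 15 in Ctrl, 77 and 81 with DZNep, and 38 and 37 with shEZH2, and rose with DZNep (log2 2.17, adjusted p 1.9e-04) and with shEZH2 (adjusted p 0.017). The scaffold NEDD9 had 28 and 31, 102 and 108, and 74 and 70, and rose with DZNep (log2 1.73, adjusted p 2.4e-04) and with shEZH2 (log2 1.21, adjusted p 0.0097). Zyxin (ZYX), an actin-binding protein of mature adhesions, had 17 and 14, 34 and 32, and 38 and 33, and rose with shEZH2 (log2 1.10, adjusted p 0.026), with a difference of 0.98 with DZNep (adjusted p 0.0092).

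The counts of the other lists are small and are to be read beside the same shares over all tested genes, 10.5% higher and 11.7% lower with DZNep and 2.02% and 2.73% with shEZH2. In collagen synthesis and processing, 0 of 18 rose and 3 fell with DZNep, and 1 fell with shEZH2. The last of these was CRTAP, a partner of the prolyl hydroxylase P3H1 in collagen modification, with 326 and 330 in Ctrl, 39 and 47 with DZNep, and 98 and 98 with shEZH2 (log2 -2.98, adjusted p 3.5e-05 with DZNep and log2 -1.78, adjusted p 0.0028 with shEZH2). Of 17 other glycoproteins and proteoglycans, 4 rose and 5 fell with DZNep, and 1 rose and 2 fell with shEZH2. Fibulin-2 (FBLN2), which binds fibronectin and basement membrane proteins, had 166 and 156, 38 and 38, and 82 and 72 and fell in both comparisons (log2 -2.12, adjusted p 1.6e-04 with DZNep, and adjusted p 0.016 with shEZH2). Agrin (AGRN), a basement membrane proteoglycan, had 191 and 187, 62 and 53, and 153 and 113 and fell with DZNep (adjusted p 7.2e-04), with a difference of -0.57 with shEZH2 (adjusted p 0.14). Of 16 other proteases and inhibitors, 4 rose and 1 fell with DZNep and 0 were called with shEZH2. Urokinase (PLAU), which activates plasminogen, had 55 and 39, 174 and 166, and 87 and 85, and rose with DZNep (log2 1.78, adjusted p 9.4e-04), with a difference of 0.83 with shEZH2 (adjusted p 0.064).

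**Figure D5:**
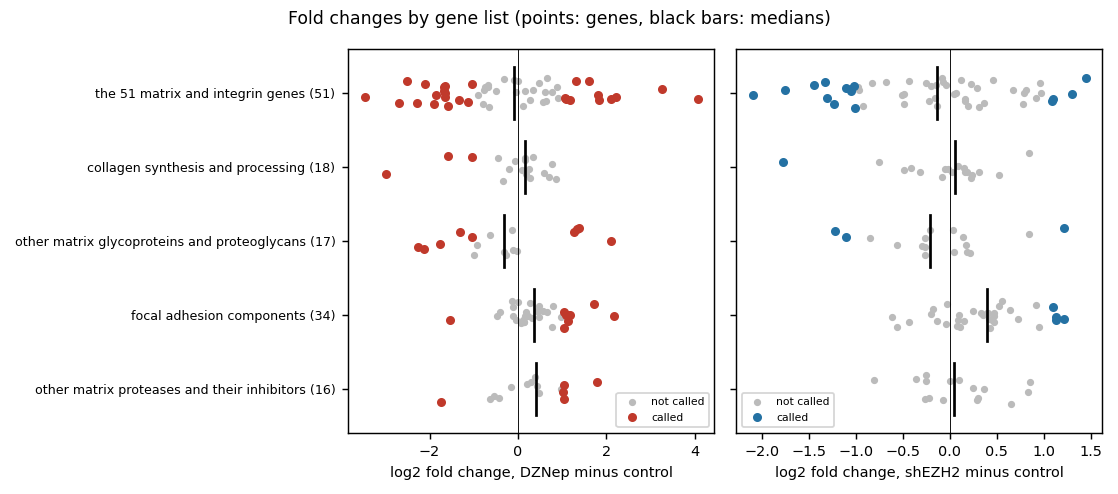
Log2 fold changes against control of the tested genes of the 51 and of the 4 surrounding lists (number tested in parentheses), with DZNep on the left and shEZH2 on the right; colored points are called and black bars are medians. The 51 matrix and integrin genes spread to both sides with a median near 0, and the focal adhesion list has medians of 0.37 and 0.40.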

How the data were processed

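Total RNA of 6 OVCAR8 samples was sequenced as stranded libraries after removal of ribosomal RNA. Per the study's methods and the submitters' processing notes, the authors used fastp for read trimming, STAR for alignment to GRCh38 and RSEM for quantification (GENCODE v37). The deposited values are treated as a score: the authors scaled each sample to a common total (999956 to 1000068) and rounded to whole numbers. TPM would have this form, but this is not given in the sources used here. Depth is unknown, and precision is limited by rounding and by 2 replicates per group.

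Because the values are not read counts, limma 3.58.1 (R 4.3.3; lmFit, eBayes with trend, two-sided) on log2(value + 1) replaced the planned test on counts. TMM factors without weights (0.92 to 1.12; 30% of log ratios and 5% of mean values trimmed) came first. Fold changes are on the log2(value + 1) scale, which understates changes of low genes. Genes needed 10 or more in 2 samples or more. Figures were drawn with matplotlib 3.10.9 and Python 3.11.15. The script was tested on simulated data.

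Members and lists were chosen with earlier results of these data known. Members called against control are given with all values, besides up to 3 uncalled genes per role with the highest means. For the surrounding lists, the 3 highest and 3 lowest called genes per comparison with a mean of at least 20 are named. Of genes whose pattern is most like that of FN1, 5 are named. Coordinates are from GENCODE v44, upstream sequences from RefSeq (GRCh38.p14) and the hairpin target from the study's oligonucleotide list. THBS2 was not analysed here. Some named results are not reported here, and counts include them.

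Alternatives were other scaling, filters on low values, pseudocounts and call rules, no trend, a fit limited to the compared pair of groups, a replicate block, the shEZH2 samples averaged, and each replicate left out.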

Additional observations from a re-analysis of the deposited data

Results flagged for a closer look

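MMP1 is given here because its changes with DZNep and with shEZH2 had opposite signs and the difference between the treatments was itself called. The opposite sign rests on a shEZH2 change that was not detectably different from 0 (log2 -0.21, adjusted p 0.46, limma). MMP1 was lower with shEZH2 than with DZNep by a log2 difference of -2.05 (adjusted p 0.0020, limma). Both DZNep samples lay above both controls, and the shEZH2 samples overlapped the controls.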

How the results depend on the processing

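Of the 27 calls with DZNep, 23 were kept under every alternative in which the gene was tested, and COL6A1, FBN2, ITGB5 and MMP15 were lost in at least 1. Of the 15 calls with shEZH2, 1 (COL23A1) was kept under all in which it was tested, and of the 11 calls between shEZH2 and DZNep, 4 were kept. The values below are counts of the 51 genes in the order higher or lower, and the cause of a change was not tested unless it follows from the setting.

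With DZNep against control, the count of higher genes went from 11 to 18 with no filter on low values, where 81 genes entered. With shEZH2 against control, higher genes went from 4 to 2 with a pseudocount of 5, to 8 with adjusted p at any size or with a 1.5-fold change, and to 0 with the shEZH2 samples averaged. Lower genes went from 11 to 7 with the values as deposited, to 6 with a minimum of 20 (38 genes entered), to 7 with a pseudocount of 5 and to 1 with the shEZH2 samples averaged. With shEZH2 against DZNep, higher genes went from 4 to 1 with a pseudocount of 5, to 7 at any size or with a 1.5-fold change, and to 0 with averaging. Lower genes went from 7 to 11 with no filter and to 4 with averaging.

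With each replicate left out in turn, DZNep against control gave 8 to 14 higher and 15 to 17 lower genes, fewest without Ctrl replicate 2. For shEZH2 against control the ranges were 0 to 6 higher and 1 to 11 lower, with 0 and 2 without shEZH2 replicate 1, 0 and 1 without shEZH2 replicate 2, and 1 higher without Ctrl replicate 2. For shEZH2 against DZNep they were 0 to 7 higher and 4 to 9 lower, with 7 and 4 without DZNep replicate 1, 0 and 4 without shEZH2 replicate 1, and 1 and 4 without shEZH2 replicate 2. A lone sample in a group was assumed to vary like the other groups.

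The labels give the groups the same replicate numbers but do not say what a number shares. Deviations from the group mean correlated at 0.786 between Ctrl and DZNep, -0.024 between Ctrl and shEZH2 and -0.038 between DZNep and shEZH2, over all tested genes. With the replicate block, 11 genes were higher and 16 lower with DZNep, 4 and 11 with shEZH2, and 4 and 7 between shEZH2 and DZNep, and no call was lost.

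A change of sign occurred in 22 results, 0 of them called, all for genes near 0. With the values as deposited, ITGA4 had 0.0577 with DZNep and 0.00599 with shEZH2, TIMP2 had 0.0215 with DZNep, and MMP15 had -0.00381 between shEZH2 and DZNep. With each replicate left out, the log2 change with DZNep ranged from -0.25 to 0.0452 for COL4A2, -0.0952 to 0.0649 for ITGA4, -0.12 to 0.35 for SPARC, -0.026 to 0.69 for TIMP1 and -0.39 to 0.28 for TIMP2. With shEZH2 it ranged from -0.00987 to 0.16 for COL12A1, -0.37 to 0.0684 for COL1A1, -0.0971 to 0.0208 for ITGA4, -0.00769 to 0.40 for ITGA7, -0.14 to 0.24 for ITGB5, -0.0928 to 0.34 for LAMA5, -0.21 to 0.0588 for LAMB2, -0.20 to 0.53 for LOXL3 and -0.41 to 0.23 for TIMP2. Between shEZH2 and DZNep it ranged from -0.103 to 0.0552 for ITGA4, -0.68 to 0.21 for ITGA5, -0.29 to 0.48 for ITGAV, -0.35 to 0.14 for LAMC3, -0.0951 to 0.50 for LOXL2, -0.0759 to 0.10 for MMP15, -0.38 to 0.34 for TIMP1 and -0.37 to 0.30 for TIMP2. Depth is unknown, so rounding and 2 replicates set the limit, most of all for genes with values under 10.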

Other observations

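Among the 30 matched genes below the minimum level, which entered no test, several had values that separated the groups. LAMA2, the laminin α chain of muscle basement membrane, had 1 and 1 in Ctrl, 8 and 10 with DZNep, and 3 and 3 with shEZH2. COL5A2, a fibrillar collagen chain, had 1 and 1, 8 and 11, and 3 and 3. MMP28 had 5 and 4, 0 and 0, and 1 and 1, and LOXL4 had 10 and 7, 3 and 3, and 3 and 3. MMP12 was listed at 0 in all Ctrl and shEZH2 samples and at 2 and 3 with DZNep. MMP9, a gelatinase, had 2 and 1, 6 and 5, and 3 and 2. These genes were chosen after their values were seen, and values this small are mostly set by rounding.

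Outside the matrix and integrin genes, the 5 whose pattern over the 6 samples was most like that of FN1, by Pearson's r of log2 values, were SLC8A1 (r 0.999), TK2 (r 0.9989), ETS2 (r 0.9987), ZNF584 (r 0.9983) and PODXL (r 0.9981). These correlations over 6 samples in 3 groups mostly reflect the 3 group means. PODXL, a sialomucin of the cell surface, had 78 and 74 in Ctrl, 217 and 229 with DZNep, and 118 and 99 with shEZH2. SLC8A1, a sodium and calcium exchanger, had 3 and 2, 20 and 20, and 6 and 5.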
